A study of Mus musculus with 21 samples.

Results

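The genes described here are 10 carriers that move nutrients and hormones across the brain endothelium: Slc2a1, Slc7a5, Slc3a2, Slc7a1, Slc16a1, Slc38a5, Slc6a6, Slco1c1, Slco1a4 and Slco2b1. They were chosen by symbol, as known transporters of the blood-brain barrier, and the rule itself uses no measured value. The choice of these genes, and of the gene lists used below, was nevertheless made with earlier results of these data known. All 10 were found among the 23827 rows of the deposited tables, and each was followed across the 21 libraries of the 7 groups.

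The endothelium of the brain forms a tight barrier, so polar nutrients enter the brain through carriers in the plasma membrane of the endothelial cells rather than between them. Slc2a1 (GLUT1) carries glucose. Slc7a5 (LAT1) carries large neutral amino acids as a light chain that needs the heavy chain Slc3a2 (4F2hc) to reach the membrane, Slc7a1 (CAT-1) carries cationic amino acids, Slc38a5 (SNAT5) glutamine and other small neutral amino acids, Slc6a6 taurine, Slc16a1 (MCT1) lactate, pyruvate and ketone bodies, Slco1c1 thyroxine, and Slco1a4 and Slco2b1 a range of organic anions and steroid conjugates. The endothelium of the developing kidney is on its way to a fenestrated form that lets small solutes pass, and it served as the contrast in another organ.

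All samples were mouse embryos at E14.5 with 1 copy of a conditional Gt(ROSA)26Sor-mCherry-Rpl10a allele, which tags ribosomes with mCherry once Cre has acted, so that ribosome-bound RNA (the translatome) can be pulled down with an antibody. Embryos Sox2Cre+/-;Gt(ROSA)26Sor-mCherry-Rpl10a+/- gave total RNA (the transcriptome) and the translatome of forebrain and of kidney. Embryos Cdh5CreERT2+/-;Gt(ROSA)26Sor-mCherry-Rpl10a+/- gave the translatome of endothelial cells (EC) of forebrain and of kidney, and embryos Emx1Cre+/-;Gt(ROSA)26Sor-mCherry-Rpl10a+/- that of the Emx1-lineage of the forebrain. Every group had 3 replicates. Sox2Cre acts in the epiblast and so tags nearly all cells of an organ, Emx1Cre acts in the dorsal forebrain, and Cdh5CreERT2 acts in endothelium after tamoxifen, which was given by gavage. The tagged allele came from a single targeted clone, and each tissue sample came from a single embryo or a pair of embryos. The translatomes of the whole organs came from another Cre driver than those of EC, so driver and cell type cannot be told apart.

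Between 21760652 and 79231692 reads were counted on genes per library. The 9 pan-endothelial markers (Cdh5, Pecam1 and others) summed to 2229 to 2278 RPKM in the brain EC libraries and to 1975 to 2326 RPKM in the kidney EC libraries, against 120 to 136 and 361 to 385 RPKM in the translatomes of the organs. RPKM is the read count divided by transcript length and library size, a level per length. The pulldown kept RNA of other cells: 7 neural markers summed to 323 to 429 RPKM in brain EC (1778 to 1816 in the brain translatome), 6 choroid plexus markers to 133 to 184 (523 to 642), and 8 kidney epithelial markers to 104 to 112 RPKM in kidney EC (287 to 300 in the kidney translatome). Pericyte markers summed to 33.4 to 40.2 RPKM in brain EC and 108 to 121 in kidney EC, and microglial markers to 25.5 to 28.0 and 6.57 to 7.31. The part of these cells in the results was not tested. The brain EC libraries shared a sequencing lane and the kidney EC libraries another, so lane and organ cannot be told apart.

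The promoters of 5 of the genes are printed because their levels span the range found below: Slc2a1 as the glucose carrier of brain EC, Slc38a5 and Slco1c1 as the carriers with the widest gap between brain EC and kidney EC, Slc16a1 as the carrier that was lower in brain EC, and Slco1a4 as a neighbour of Slco1c1 with few reads in every group. Each run is the RefSeq window from 250 bases before to 50 bases after a transcript start on GRCm38.p6, read 5′ to 3′ on the strand of the gene. Capitals mark matches, on either strand, to the 8 motifs searched. These were TATAAA of the TATA box, GGGCGG of the GC box, GGAAG of ETS factors, ACAAAG of SOX factors, TTCAAAG of TCF/LEF factors, ACGTG of the hypoxia response, TGATGNAA of the amino acid response and CACGTG of the E-box.
Slc2a1, chr4:119108495-119108794, plus strand: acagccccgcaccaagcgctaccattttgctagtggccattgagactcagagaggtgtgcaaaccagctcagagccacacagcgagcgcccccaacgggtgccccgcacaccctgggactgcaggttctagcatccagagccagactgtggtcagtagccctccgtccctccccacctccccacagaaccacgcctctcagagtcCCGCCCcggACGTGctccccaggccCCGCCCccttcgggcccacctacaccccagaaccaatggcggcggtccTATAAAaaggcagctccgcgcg
Slc38a5, chrX:8271131-8271430, plus strand: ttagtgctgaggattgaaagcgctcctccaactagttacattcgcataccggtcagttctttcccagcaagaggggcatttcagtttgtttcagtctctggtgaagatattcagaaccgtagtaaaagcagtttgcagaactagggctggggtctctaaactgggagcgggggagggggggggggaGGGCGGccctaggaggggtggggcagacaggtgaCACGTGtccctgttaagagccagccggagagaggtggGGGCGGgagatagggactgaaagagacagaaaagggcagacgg
Slco1c1, chr6:141524104-141524403, plus strand: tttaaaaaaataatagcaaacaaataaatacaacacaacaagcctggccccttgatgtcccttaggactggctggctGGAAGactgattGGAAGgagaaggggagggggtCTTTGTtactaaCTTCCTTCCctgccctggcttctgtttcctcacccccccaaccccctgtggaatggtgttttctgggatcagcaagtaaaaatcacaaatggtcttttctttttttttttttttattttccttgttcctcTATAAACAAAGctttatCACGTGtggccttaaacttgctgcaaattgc
Slc16a1, chr3:104638414-104638713, plus strand: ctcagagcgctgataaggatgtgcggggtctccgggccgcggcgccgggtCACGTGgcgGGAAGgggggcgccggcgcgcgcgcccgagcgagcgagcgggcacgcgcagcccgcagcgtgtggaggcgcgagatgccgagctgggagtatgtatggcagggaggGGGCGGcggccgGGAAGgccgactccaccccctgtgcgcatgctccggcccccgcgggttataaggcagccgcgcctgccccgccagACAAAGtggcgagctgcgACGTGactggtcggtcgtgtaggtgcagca
Slco1a4, chr6:141856171-141856470, minus strand: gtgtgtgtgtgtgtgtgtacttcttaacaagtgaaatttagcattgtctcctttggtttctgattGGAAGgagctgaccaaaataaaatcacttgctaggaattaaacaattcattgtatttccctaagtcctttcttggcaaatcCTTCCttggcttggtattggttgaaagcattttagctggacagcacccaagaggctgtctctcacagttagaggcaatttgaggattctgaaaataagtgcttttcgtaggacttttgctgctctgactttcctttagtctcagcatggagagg
Windows were found for 8 of the 10 genes, 11 in all since a gene can have several starts, and for none of Slc7a5 and Slc6a6. CACGTG, which contains ACGTG on both strands, had its first base at position -30 from the start in Slc38a5, 19 in Slco1c1 and -200 in Slc16a1. It was in 3 of the 11 windows and in 7.15% of the 32851 promoters of the reference, and ACGTG was in 5 of the 11 and in 19.6%. GGGCGG was in 5 of the 11 windows (35.7% of all promoters), GGAAG in 8 (71.4%), TATAAA in 3 (13.6%), and ACAAAG in 2 (18.7%). TATAAA had its first base after the start used in Slc2a1 (28) and Slco1c1 (2), and before it in a window of Slc7a1 (-28). The Slc38a5 window lies almost wholly inside the gene as positioned below, which begins at chrX:8271133. TTCAAAG was in 2 windows (5.14%) and TGATGNAA in none of the 11 (3.97% of all promoters). A match is a description of the letters in the window.

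Together the 10 genes took 0.833% ± 0.0098 (SD, n = 3) of all counted reads in brain EC. They took 0.0658% ± 0.0023 in kidney EC, 0.0776% ± 0.0051 in the brain translatome and 0.0628% ± 0.00057 in the kidney translatome. The share was lowest in the Emx1-lineage, at 0.0355% ± 0.00071. The 3 brain EC libraries (0.828% to 0.845%) thus stood far above the 18 others, which reached at most 0.0883%.

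**Figure D1:**
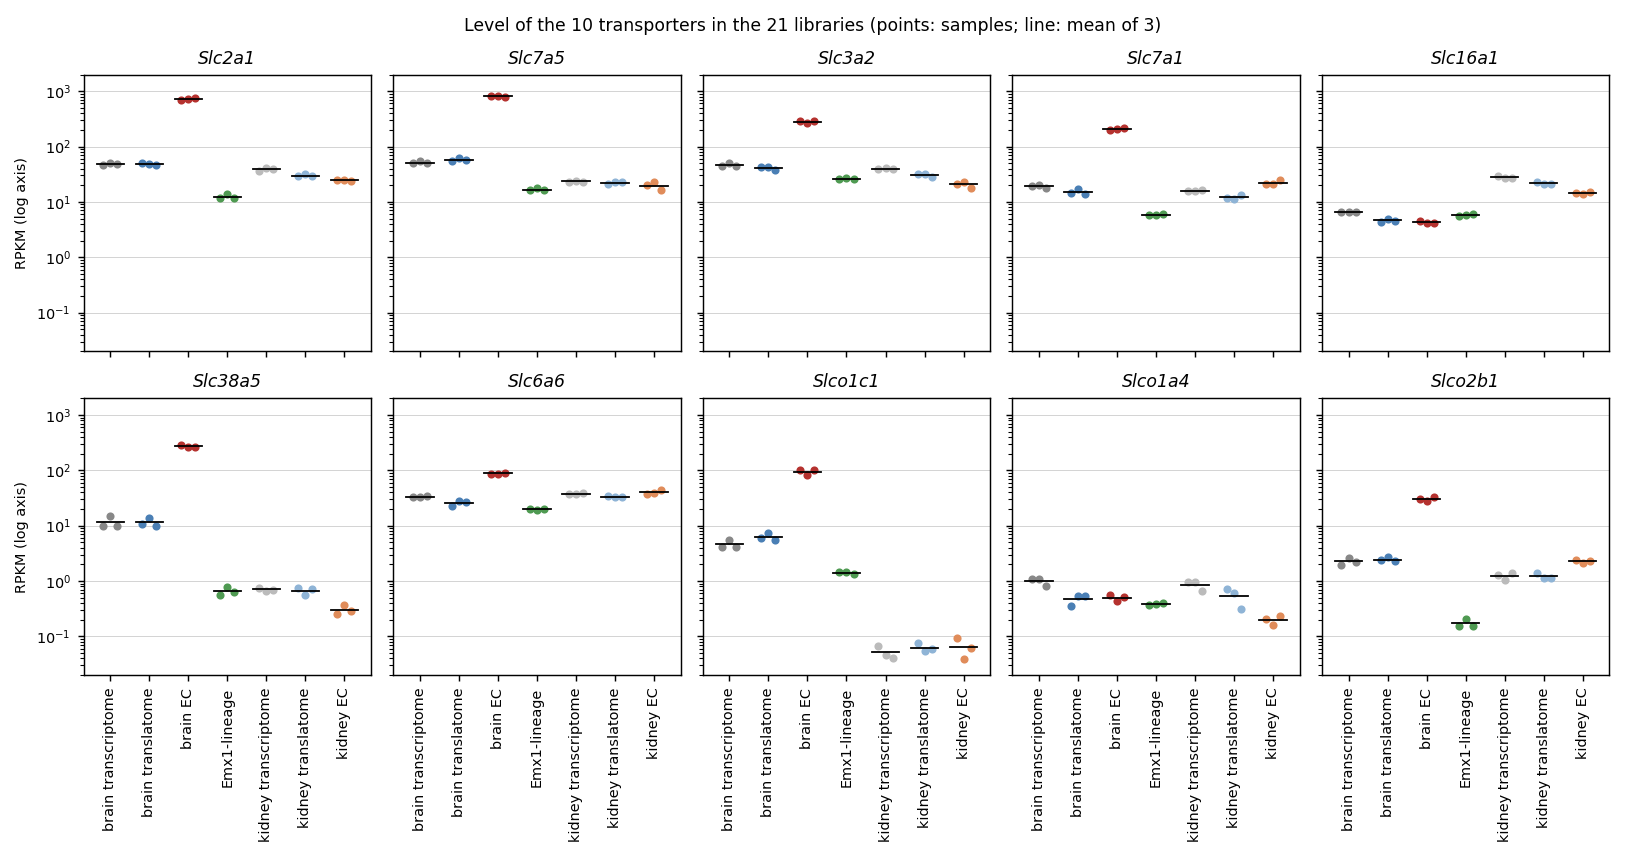
RPKM of each transporter (log axis) in the 21 libraries, with a point per library and a line at the mean of the 3 replicates. Slc2a1, Slc7a5, Slc3a2, Slc7a1, Slc38a5, Slc6a6, Slco1c1 and Slco2b1 have their highest points in the 3 brain EC libraries, whereas Slc16a1 is highest in the kidney groups and Slco1a4 reaches at most 1.11 RPKM.

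To ask which carriers distinguish the endothelium of the organs, brain EC were compared with kidney EC by edgeR's quasi-likelihood test on counts, with Benjamini-Hochberg adjustment over all rows tested and a threshold of 0.001 on the adjusted p. Of the 10 genes, 9 were higher in brain EC and 1, Slc16a1, was lower. Over all 19238 rows tested, 37% passed, 20.1% as higher and 16.9% as lower. The median log2 fold change was 3.77 over the 10 genes and 0.0095 over all rows. In these bulk samples, fewer cells of a type and less RNA per cell cannot be told apart.

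Slc2a1 (NM_011400, chr4:119108711-119137983, plus strand, GRCm38 as are all gene positions here) was at 698, 713 and 754 RPKM in the 3 brain EC libraries and at 24.6, 25.2 and 23.9 RPKM in the kidney EC libraries. The groups lay far apart, with hardly any spread within either. The log2 fold change was 4.92 ± 0.084 (SE), a 30.3-fold difference (adjusted p = 2.31e-11, edgeR). By mean RPKM it was number 25 of the 23827 rows in brain EC. Among 11 genes of the Slc2a family, Slc2a1 held 97.5% ± 0.076 (SD, n = 3) of the summed RPKM in brain EC and 59.0% ± 0.55 in kidney EC. Its other levels were, in order, those of the brain translatome (48.6 ± 2.08 RPKM), brain transcriptome (48.1 ± 2.15), kidney transcriptome (38.7 ± 2.53), kidney translatome (30.0 ± 1.30), kidney EC (24.6 ± 0.63) and Emx1-lineage (12.4 ± 1.24), and of these neighbours only the brain translatome and transcriptome overlapped. A stretch of 105 bases of its transcript is shared with the antisense gene Gm12868, and the library kit did not mark strand.

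Slc7a5 (NM_011404, chr8:121881150-121907694, minus strand) had the highest level of the 10 genes in brain EC, at 811, 820 and 775 RPKM. In kidney EC it was at 19.9, 22.4 and 16.3 RPKM. The log2 fold change of 5.41 ± 0.12 (SE) was the third largest of the 10 genes (42.4-fold, adjusted p = 1.18e-10). It was number 20 of all rows in brain EC. Its levels elsewhere were 58.1 ± 3.49 RPKM in the brain translatome, 51.1 ± 2.72 in the brain transcriptome, 23.4 ± 0.59 and 22.2 ± 1.10 in the kidney transcriptome and translatome and 16.6 ± 0.88 in the Emx1-lineage (SD, n = 3), and from the kidney transcriptome downwards each group overlapped the next. Of the summed RPKM of 13 Slc7a genes, Slc7a5 held 71.6% ± 1.23 in brain EC and 30.0% ± 4.04 in kidney EC.

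Its heavy chain Slc3a2 (NM_008577 and NM_001161413, chr19:8706882-8723369, minus strand) was at 285, 266 and 294 RPKM in brain EC and at 21.5, 22.7 and 18.0 RPKM in kidney EC. The groups did not overlap, and the log2 fold change was 3.81 ± 0.095 (SE), or 14.0-fold (adjusted p = 1.96e-10). The 95% intervals of the log2 fold changes of the light chain, 5.13 to 5.68, and of the heavy chain, 3.59 to 4.02, did not overlap. The ratio of Slc7a5 to Slc3a2 RPKM was 2.84, 3.08 and 2.64 in the brain EC libraries and 0.928, 0.986 and 0.908 in the kidney EC libraries. It was 1.44 ± 0.12 (SD, n = 3) in the brain translatome, 1.10 ± 0.013 in the brain transcriptome, 0.723 ± 0.088 in the kidney translatome, 0.636 ± 0.023 in the Emx1-lineage and 0.584 ± 0.0096 in the kidney transcriptome. Only in brain EC, the brain translatome and the brain transcriptome was it above 1 in every library. Slc3a2 itself was at 46.6 ± 2.90 RPKM in the brain transcriptome, 40.5 ± 2.88 in the brain translatome, 40.1 ± 0.38 in the kidney transcriptome, 30.9 ± 2.38 in the kidney translatome, 26.1 ± 0.56 in the Emx1-lineage and 20.7 ± 2.48 in kidney EC, and it is known to serve other light chains too. Of the 2813 bases of its transcript, 171 are shared with other genes, 24 in number, in stretches of at least 50 bases.

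**Figure D2:**
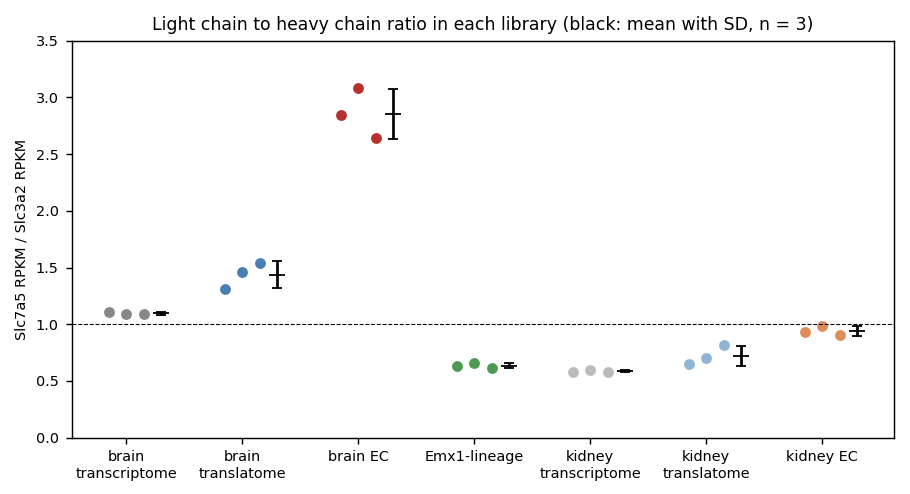
Ratio of Slc7a5 to Slc3a2 RPKM in each library by group, with a black mark at the mean and its SD (n = 3) and a dashed line at a ratio of 1. The brain EC libraries sit between 2.64 and 3.08, above all other libraries, and the kidney EC libraries sit just under 1.

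Slc7a1 (NM_007513, chr5:148327410-148399904, minus strand) was at 198, 207 and 219 RPKM in brain EC and at 21.0, 20.9 and 24.4 RPKM in kidney EC. Its log2 fold change was 3.28 ± 0.098 (SE), or 9.70-fold (adjusted p = 6.43e-10). Kidney EC (22.1 ± 2.00 RPKM, SD, n = 3) held its second highest level, followed by the brain transcriptome (19.0 ± 0.89), the kidney transcriptome (15.7 ± 0.36), the brain translatome (15.2 ± 1.72), the kidney translatome (12.1 ± 0.91) and the Emx1-lineage (5.85 ± 0.098), and of these neighbours only the kidney transcriptome and the brain translatome overlapped. Its share of the 13 Slc7a genes was 18.6% ± 1.12 in brain EC and 34.1% ± 3.77 in kidney EC, where it stood above Slc7a5. Of the 7179 bases of the Slc7a1 transcript, 61 are shared with other genes, 499 in number, in stretches of at least 50 bases.

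Slc38a5 (NM_172479, chrX:8271133-8280179, plus strand) was at 293, 269 and 263 RPKM in brain EC and at 0.255, 0.362 and 0.289 RPKM in kidney EC, with 21, 22 and 22 reads in the latter. The 3 kidney EC libraries were all close to the lower end of what was measured. On the log2 scale the difference was 9.89 ± 0.12 (SE), or 948-fold (adjusted p = 4.84e-12). Slc38a5 held 37.4% ± 1.78 of the summed RPKM of 11 Slc38a genes in brain EC and 0.131% ± 0.027 in kidney EC. Between these extremes it was at 11.5 ± 2.86 and 11.5 ± 2.05 RPKM in the brain transcriptome and translatome, and at 0.703 ± 0.056, 0.673 ± 0.11 and 0.653 ± 0.12 RPKM in the kidney transcriptome, the kidney translatome and the Emx1-lineage, which overlapped one another. The Slc38a total was 736 RPKM in brain EC and 231 RPKM in kidney EC. In kidney EC that total was made up mainly of Slc38a2 (87.8 RPKM), Slc38a10 (56.0), Slc38a4 (36.0) and Slc38a1 (32.5).

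Slc6a6 (NM_009320, chr6:91684053-91759066, plus strand) showed the smallest gap among the carriers over 5 RPKM that were higher in brain EC. It was at 85.1, 87.4 and 90.5 RPKM in brain EC and at 37.5, 38.9 and 44.0 RPKM in kidney EC, so that the groups were apart but both high. The log2 fold change was 1.17 ± 0.083 (SE), or 2.25-fold (adjusted p = 5.24e-07). Kidney EC overlapped the kidney transcriptome (37.9 ± 0.21 RPKM), and the remaining levels were 33.5 ± 0.20 in the brain transcriptome, 33.3 ± 0.56 in the kidney translatome, 26.1 ± 2.77 in the brain translatome and 19.8 ± 0.56 in the Emx1-lineage.

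The monocarboxylate carrier Slc16a1 (NM_009196, chr3:104638668-104658462, plus strand) went the other way. It was at 4.61, 4.16 and 4.08 RPKM in brain EC and at 14.7, 14.1 and 15.2 RPKM in kidney EC. Its log2 fold change was -1.73 ± 0.077 (SE), a level 3.32-fold lower in brain EC (adjusted p = 1.32e-08). Its highest levels were in the kidney transcriptome (27.9 ± 1.27 RPKM, SD, n = 3) and the kidney translatome (21.8 ± 1.32 RPKM), and in brain EC it was number 9763 of the 23827 rows. The brain transcriptome (6.58 ± 0.056 RPKM), the Emx1-lineage (5.83 ± 0.21) and the brain translatome (4.62 ± 0.27) lay between, and the brain translatome overlapped brain EC, the lowest group. Of the partner proteins that bring monocarboxylate carriers to the membrane, Bsg was higher in brain EC (844 against 237 RPKM, log2 fold change 1.87, adjusted p = 6.76e-09), whereas Emb was lower (1.19 against 3.83 RPKM, log2 fold change -1.64, adjusted p = 4.49e-07). Of the other Slc16a genes, Slc16a4 was at 8.17 RPKM in brain EC and 0.669 RPKM in kidney EC (log2 fold change 3.65), and Slc16a3 (MCT4) was at 1.78 and 9.69 RPKM (log2 fold change -2.38).

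Slco1c1 (NM_001177772 and NM_021471, chr6:141524368-141570177, plus strand) had the largest log2 fold change of the 10 genes. It was at 100.4, 80.9 and 99.5 RPKM in brain EC and at 0.0923, 0.0385 and 0.0613 RPKM in kidney EC. The kidney EC values stood on 13, 4 and 8 reads, against 19786, 13702 and 18156 reads in brain EC. This gave a log2 fold change of 10.48 ± 0.18 (SE), with a 95% interval of 10.08 to 10.89 (adjusted p = 2.57e-11). The brain translatome (6.32 ± 0.99 RPKM, SD, n = 3) and transcriptome (4.62 ± 0.84) overlapped and were above the Emx1-lineage (1.40 ± 0.053). Its levels in the 3 kidney groups overlapped one another and none exceeded 0.0923 RPKM.

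Slco1a4 (NM_030687, chr6:141805440-141856199, minus strand) lies 235262 bases from Slco1c1 on the same chromosome and had few reads in every group. It was at 0.552, 0.442 and 0.515 RPKM in brain EC (131, 90 and 113 reads) and at 0.206, 0.160 and 0.229 RPKM in kidney EC (35, 20 and 36 reads). The groups did not overlap, with a log2 fold change of 1.37 ± 0.22 (SE), or 2.59-fold (adjusted p = 2.57e-04). The adjusted p rose to 0.00173 without brain EC replicate 1, 0.00115 without brain EC replicate 3 and 0.001 without kidney EC replicate 1. None of these was under the threshold, so the call was lost in each, with log2 fold changes of 1.30 to 1.40. Its highest levels were in the brain transcriptome (0.997 ± 0.16 RPKM, SD, n = 3) and the kidney transcriptome (0.860 ± 0.18), which overlapped. Slco1a4 held 0.347% ± 0.016 of the summed RPKM of 12 Slco genes in brain EC, where Slco1c1 held 64.6% ± 2.20. Its transcript shared no stretch of 50 bases with that of another gene.

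Slco2b1 (NM_001252530, NM_001252531 and NM_175316, chr7:99657804-99711340, minus strand) was at 30.1, 28.2 and 32.5 RPKM in brain EC and at 2.37, 2.14 and 2.31 RPKM in kidney EC. The difference on the log2 scale was 3.73 ± 0.087 (SE), or 13.3-fold (adjusted p = 1.34e-10). The brain translatome (2.43 ± 0.21 RPKM, SD, n = 3) and transcriptome (2.28 ± 0.36) overlapped kidney EC, and the level was lowest in the Emx1-lineage (0.172 ± 0.029). It held 20.9% ± 0.91 of the Slco total in brain EC (144.7 RPKM) and 18.7% ± 0.55 in kidney EC (12.2 RPKM). Of the 4381 bases of its transcript, 507 are shared with the antisense genes Gm15635 and Gm34280, whose reads could not be told apart from its own.

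The next comparison asked how far each carrier was enriched in brain EC over the translatome of the whole forebrain, which it shares with later comparisons. Of the 10 genes, 8 were higher in brain EC and none was lower. Over 19103 rows tested, 46.2% passed, 24.8% as higher and 21.4% as lower. The median log2 fold change was 3.99 over the 10 genes and -0.0058 over all rows. With total counts in place of TMM factors the median over all rows was -0.30, and the split of all rows called moved from 4740 higher and 4084 lower to 3397 higher and 6002 lower, while the same number of carriers passed.

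Slc38a5 was the most enriched, at 10.9, 13.8 and 9.88 RPKM in the brain translatome against 293, 269 and 263 RPKM in brain EC (log2 fold change 4.87 ± 0.12, SE, adjusted p = 1.34e-12). Slc2a1 (4.18 ± 0.088), Slco1c1 (4.18 ± 0.12), Slc7a5 (4.08 ± 0.094), Slc7a1 (4.07 ± 0.10) and Slco2b1 (3.90 ± 0.086) came next. Slc3a2 (3.09 ± 0.084) and Slc6a6 (4.11-fold higher, with a 95% interval of 3.60 to 4.69) had smaller differences, and their levels in the brain translatome were 37.1 to 42.3 and 23.0 to 28.4 RPKM. The adjusted p of these 8 ranged from 6.43e-13 for Slc2a1 to 2.39e-10 for Slc6a6.

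Slc16a1 and Slco1a4 did not pass the threshold. Slc16a1 was at 4.38, 4.92 and 4.58 RPKM in the brain translatome and at 4.61, 4.16 and 4.08 RPKM in brain EC, so the groups overlapped. Its log2 fold change was 0.18 with a 95% interval of -0.0038 to 0.36 (adjusted p = 0.0816), and it was below 0 with total counts (-0.12) and with limma on RPKM (-0.09). Slco1a4 was at 0.361, 0.531 and 0.533 RPKM in the brain translatome, also overlapping brain EC, with a log2 fold change of 0.39 and an interval of -0.04 to 0.82 (adjusted p = 0.104). Neural markers in brain EC summed to 323 to 429 RPKM, against 1778 to 1816 in the brain translatome, and their part in these levels was not tested.

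In kidney EC against the kidney translatome, 3 of the 10 genes were higher and none was lower. Over 18940 rows tested, 31.7% passed, 16.7% as higher and 15% as lower, and the median log2 fold change was 0.12 over the 10 genes and -0.04 over all rows. Slc7a1 was at 21.0, 20.9 and 24.4 RPKM in kidney EC and at 11.9, 11.4 and 13.2 RPKM in the kidney translatome (log2 fold change 1.22 ± 0.083, SE, adjusted p = 3.70e-07). Slco2b1 was at 2.14 to 2.37 and 1.14 to 1.37 RPKM (1.27 ± 0.12, adjusted p = 6.65e-06), and Slc6a6 at 37.5 to 44.0 and 32.8 to 33.9 RPKM (0.63 ± 0.073, adjusted p = 2.56e-05). By RPKM the libraries of the groups were apart in these 3. Another 5 of the 10 genes were apart in the opposite direction by RPKM, among them Slc2a1 (23.9 to 25.2 against 29.1 to 31.5). Of the 59 other genes of the same families, 34 were apart in that opposite direction by RPKM and 6 were apart as higher in kidney EC. The share of all rows that were apart was not computed, so nothing is read from these counts.

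The other 7 did not pass. Slc2a1 had a log2 fold change of 0.07 with a 95% interval of -0.06 to 0.19, and Slc7a5 of 0.17 with an interval of -0.05 to 0.38. The signs of both turned with total counts (-0.30 and -0.20) and with limma on RPKM (-0.28 and -0.19). With total counts the median over all rows lay at -0.41, and the split of all rows called moved from 3163 higher and 2837 lower to 1564 higher and 5655 lower. The call of Slc6a6 was lost under both of these settings (0.26 in each). Slc16a1 passed as lower under both (-0.58 and -0.54) and Slc3a2 with total counts (-0.59), so that the 10 genes split into 2 higher and 2 lower with total counts and into 2 higher and 1 lower with limma. Slc3a2 (-0.22), Slc16a1 (-0.21), Slc38a5 (-0.81), Slco1a4 (-1.09) and Slco1c1 (0.40, interval -0.78 to 1.58) made up the rest. Kidney epithelial markers summed to 104 to 112 RPKM in kidney EC and to 287 to 300 in the kidney translatome, and their part was not tested.

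**Figure D3:**
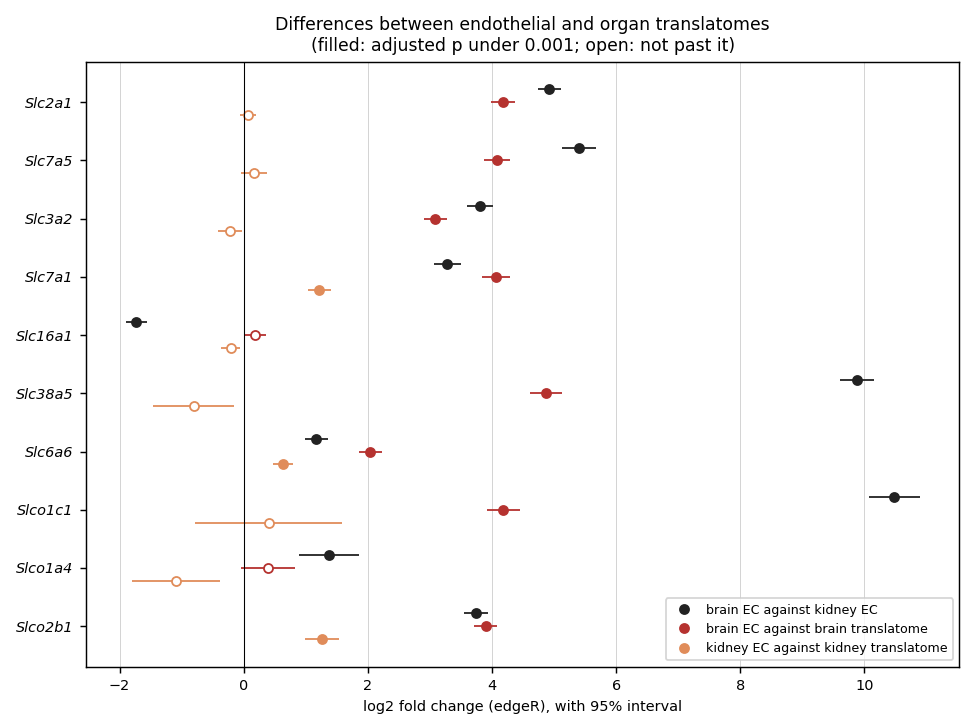
log2 fold change of each transporter in 3 comparisons, with 95% intervals from edgeR. Filled points passed an adjusted p of 0.001. In kidney EC against the kidney translatome the filled points are Slc7a1, Slc6a6 and Slco2b1, and the Slc16a1 point for brain EC against kidney EC, at -1.73, is the only filled point left of 0.

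Whether enrichment itself differed between the organs was tested as an interaction over 12 libraries, that is, the log2 fold change of brain EC over the brain translatome minus that of kidney EC over the kidney translatome. The difference passed the threshold in favour of brain for 8 of the 10 genes. Over 19764 rows tested, 25.1% passed, 16.5% as higher and 8.6% as lower in brain, with a median difference of 0.15 over all rows. All 9 pan-endothelial markers passed in the same direction, with differences of 1.41 to 1.66 and a median of 1.50, as did 5 of 7 microglial markers (median 1.53). Among the carriers it was 5.71 ± 0.30 (SE) for Slc38a5, 4.14 ± 0.096 for Slc2a1, 3.94 ± 0.14 for Slc7a5, 3.33 ± 0.12 for Slc3a2, 2.88 ± 0.13 for Slc7a1, 2.66 ± 0.13 for Slco2b1 and 1.44 ± 0.12 for Slc6a6. Slco1c1 had a difference of 3.78 ± 0.66 (adjusted p = 1.60e-04), which no longer passed without kidney translatome replicate 1 (3.60) or 3 (3.83), where its reads were 6, 4 and 4 in the 3 libraries. For Slc16a1 it was 0.42 with an interval of 0.19 to 0.65 (adjusted p = 0.00388), and for Slco1a4 1.50 with an interval of 0.70 to 2.31 (adjusted p = 0.00393). Of the 8 carriers that passed, 7 lay above the range of the pan-endothelial markers, and Slc6a6 lay within it. The 8 markers of barrier or fenestrated endothelium all passed in the same direction too, with differences of 1.26 to 6.23 and a median of 3.32. They include the fenestrated marker Plvap, which was lower in brain EC than in kidney EC (84.4 against 419 RPKM, log2 fold change -2.27). Passing this test therefore does not set barrier markers apart from it. Of 22 other carriers known from the blood-brain barrier, 15 passed as higher in brain and 1 as lower. The median over the 10 genes was 3.11. Whether a carrier differed from the markers was not tested.

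**Figure D4:**
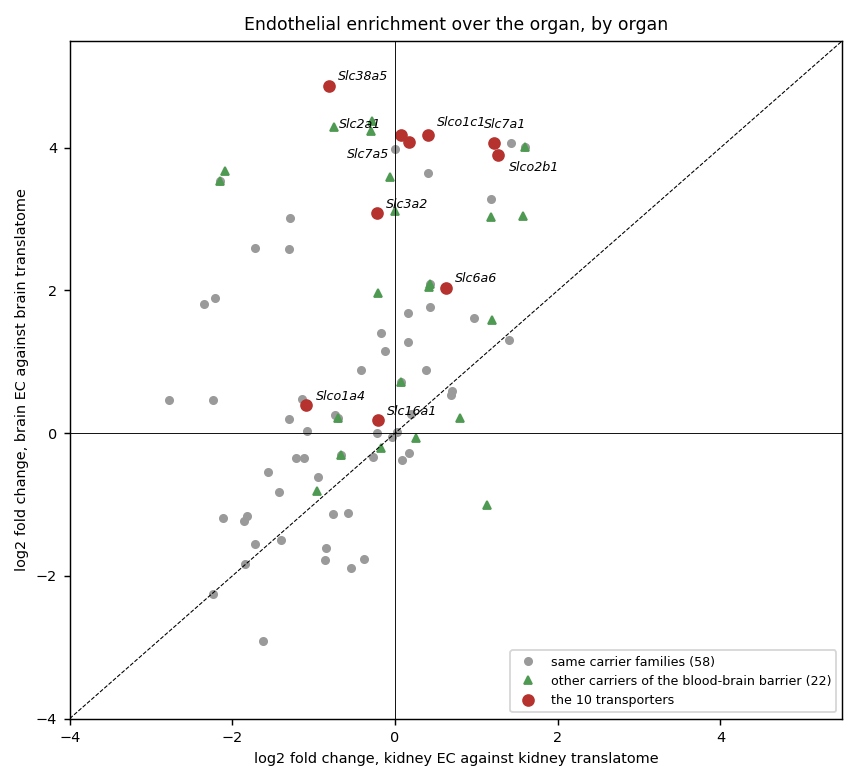
log2 fold change of brain EC over the brain translatome (vertical) against that of kidney EC over the kidney translatome (horizontal), with the transporters in red, 58 other genes of the same families as grey circles and 22 other carriers known from the blood-brain barrier as green triangles. The dashed line marks equal values, and all 10 transporters lie above it.

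The Emx1-lineage is made up of neural cells of the dorsal forebrain, and its pan-endothelial markers summed to 12.1 to 14.3 RPKM. Against the brain translatome, 8 of the 10 genes were lower, 1 was higher and 1 did not pass. Over 19006 rows tested, 22.1% passed, 12.8% as lower and 9.2% as higher. With total counts the split of all rows called moved from 1749 higher and 2442 lower to 1183 higher and 2778 lower.

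The carriers fell by widely different amounts in the Emx1-lineage. Slc38a5 was at 0.557, 0.782 and 0.621 RPKM, or 5.67% of its mean in the brain translatome (log2 fold change -4.13 ± 0.15, SE, adjusted p = 1.70e-11). Slco2b1 was at 7.05% (-3.82 ± 0.13) and Slco1c1 at 22.1% (-2.12 ± 0.11). The 9 pan-endothelial markers ranged from 4.33% to 22.2%, with a median of 6.40%, so these 3 carriers lay within that range. Slco1c1 lay at its upper end, where Egfl7 (22.2%) was the only marker above 14.9%. Slc2a1 followed at 25.6% (11.7 to 13.9 RPKM), Slc7a5 at 28.6% (16.1 to 17.7 RPKM), Slc7a1 at 38.6% (5.74 to 5.94 RPKM), Slc3a2 at 64.6% (25.6 to 26.7 RPKM) and Slc6a6 at 75.9% (19.3 to 20.4 RPKM), all above it. Slc16a1 was higher, at 5.59 to 5.99 RPKM or 126% (log2 fold change 0.39 ± 0.066, adjusted p = 2.36e-04). The calls of Slc6a6 (adjusted p = 6.10e-04) and Slc16a1 were each lost in several of the alternatives, listed in the closing section. Slco1a4 was at 81.2%, with a log2 fold change of -0.23 and an interval of -0.62 to 0.17.

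**Figure D5:**
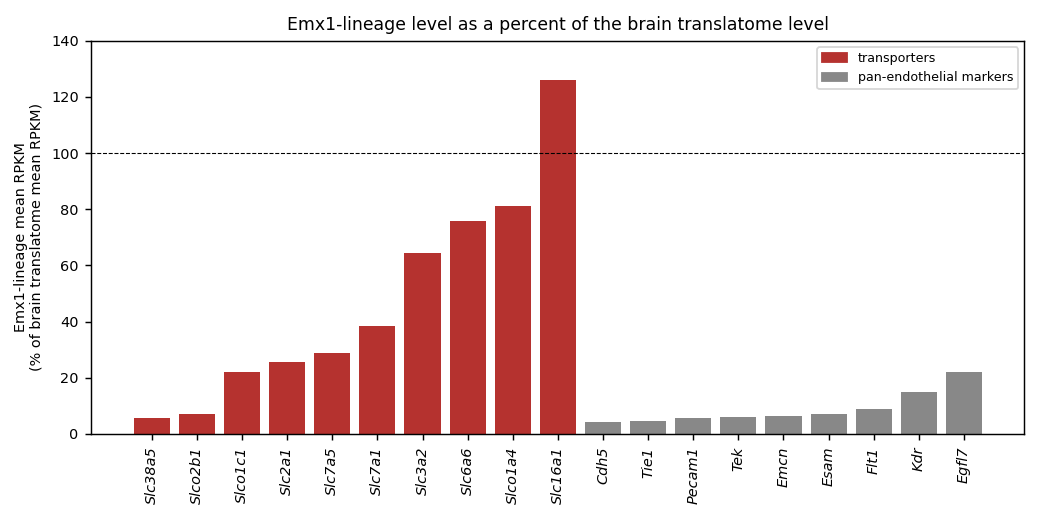
Mean RPKM in the Emx1-lineage as a percent of the mean in the brain translatome, for the 10 transporters (red) and 9 pan-endothelial markers (grey), with a dashed line at 100%. Slc38a5, Slco2b1 and Slco1c1 lie in the range of the markers, 4.33% to 22.2%, and Slc16a1 is the only bar above 100%.

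Between the whole organs, 7 of the 10 genes were higher in the brain translatome than in the kidney translatome, 1 was lower and 2 did not pass. Over 19241 rows tested, 53.4% passed, 27.2% as higher and 26.2% as lower in brain. Slco1c1 (log2 fold change 6.81 ± 0.21, SE) and Slc38a5 (4.29 ± 0.17) had the widest gaps, followed by Slc7a5 (1.59 ± 0.061), Slco2b1 (1.19 ± 0.12), Slc2a1 (0.90 ± 0.055), Slc3a2 (0.59 ± 0.069) and Slc7a1 (0.52 ± 0.079). With total counts, where the median over all rows was -0.20, the call of Slc7a1 was lost. It was also lost without brain translatome replicate 1, at 0.55. Slc16a1 was lower in brain by 2.03 ± 0.071 on the log2 scale. Slc6a6 (-0.15) and Slco1a4 (-0.02) did not pass. With total counts Slc6a6 passed as lower (-0.34), and with limma on RPKM the calls of Slc3a2 (0.38) and Slc7a1 (0.30) were lost.

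How ribosome-bound and total RNA differ was asked in each organ with libraries of the same tissue samples. In the main fit, which left this pairing out, none of the 10 genes was higher in the brain translatome and 3 were lower. Over all 19446 rows 37.1% passed (18.6% higher, 18.5% lower). Slco1a4 fell by 1.06 ± 0.18 on the log2 scale (adjusted p = 1.80e-04), from 1.08, 1.11 and 0.808 RPKM in the transcriptome to 0.361, 0.531 and 0.533 in the translatome. Slc16a1 fell by 0.48 ± 0.074 and Slc6a6 by 0.33 ± 0.067. With the replicate number as a block, which takes the pairing in, 6 of the 10 passed. The added genes were Slc7a5 (0.21) and Slco1c1 (0.48), higher in the translatome, and Slc7a1 (-0.30). With limma on RPKM 1 passed.

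In the kidney, also without the pairing, none was higher in the translatome and 4 were lower, against 30.7% of all 19336 rows (14.9% higher, 15.8% lower). Slc3a2 (-0.38 ± 0.052, SE), Slc7a1 (-0.37 ± 0.054), Slc2a1 (-0.37 ± 0.053) and Slc16a1 (-0.36 ± 0.053) had much the same difference. With the replicate block Slc6a6 (-0.19) and Slco1a4 (-0.66) passed as well, and with limma on RPKM none did. Without kidney translatome replicate 3, 2 of the 10 passed, as Slc2a1 and Slc16a1 dropped out.

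Other genes of the same families were followed as a list of 59. In brain EC against kidney EC, 21 of 58 tested were higher, 8 were lower and 29 did not pass, with a median log2 fold change of 0.35, against 20.1% higher and 16.9% lower over all rows. Among the largest differences upwards were those of the GABA carrier Slc6a13 (14.1 against 0.330 RPKM), the amino acid carriers Slc7a8 (61.6 against 1.96) and Slc38a3 (159.6 against 5.66), and Slc16a14 (1.49 against 0.0857). Of these, Slc16a14 was lower in brain EC than in the brain translatome (4.26 RPKM), whereas Slc7a8 and Slc38a3 were higher than there (6.49 and 11.8 RPKM). The largest downwards were in Slc38a4 (2.65 against 36.0 RPKM), Slc16a3, Slc7a2 (0.533 against 1.03), Slc2a13 (1.18 against 2.18) and Slc38a10 (35.3 against 56.0). In kidney EC against the kidney translatome, 7 of the 59 were higher and 17 lower, against 16.7% and 15% over all rows.

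Of 22 other carriers known from the blood-brain barrier, 15 were higher in brain EC than in kidney EC, 3 were lower and 4 did not pass, with a median of 1.34, against 20.1% and 16.9% of all rows. The list holds 6 genes that are also in the family list. Mfsd2a, a carrier of lysophospholipids with omega-3 fatty acids, was at 169.9 RPKM in brain EC and 0.418 RPKM in kidney EC (log2 fold change 8.74, adjusted p = 2.41e-11). The organic anion carrier Slc22a8 (23.9 against 0.164 RPKM), the metal ion carrier Slc39a8 (130.4 against 4.26) and the neutral amino acid carrier Slc1a4 (118.9 against 4.07) were higher as well. Slc1a5 (8.84 against 24.1 RPKM), the inositol carrier Slc5a3 (2.90 against 7.07) and the folate carrier Slc19a1 (9.13 against 14.8) were lower.

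Because Slco1c1 carries thyroxine, 10 further genes of thyroid hormone handling were examined, of which 5 were higher and 1 lower in brain EC than in kidney EC, where 20.1% and 16.9% of all rows were. The thyroid hormone receptor Thra was at 100.4 against 24.5 RPKM. Against the brain translatome 3 of the 10 were higher in brain EC, among them Slc7a8 and Klf9, and 4 were lower, among them Thra (402 RPKM there) and the choroid plexus marker Ttr (547 RPKM there, 143 RPKM in brain EC). Over all rows 24.8% were higher and 21.4% lower in that comparison.

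For each carrier the 3 rows with the closest pattern were sought among 11837 rows, by Pearson's r of log2(RPKM + 1) over the 21 libraries. The 3 brain EC libraries stand apart from the others for most of the carriers, so r is given only as a measure of likeness. The closest rows were Ctsw for Slc7a5 (r = 0.996), Slc22a8 for Slc3a2 (0.990), Slco2b1 for Slc7a1 (0.988), Umps for Slc16a1 (0.989), Foxf2 for Slc38a5 (0.986) and for Slco1c1 (0.993), Cpt1a for Slc6a6 (0.986), Cyp4f17 for Slco1a4 (0.901) and Gatm for Slco2b1 (0.993). Mfsd7c was among the 3 closest rows of Slc2a1, Slc7a5 and Slc3a2, and Slco1c1 was among those of Slc38a5. Foxf2, a forkhead transcription factor, was at 168 RPKM in brain EC, 13.6 in the brain translatome and 0.0548 in kidney EC.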

How the data were processed

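The authors immunoprecipitated mCherry-tagged ribosomes, made libraries with an unstranded poly(A) kit, aligned the reads to GRCm38 by means of RUM and counted them per RefSeq gene using rpkmforgenes. The deposited counts are whole numbers of reads per row without normalization, and the deposited RPKM values were computed by the authors from those reads, their lengths and the library sizes. No column of another series was found (0), and of rows repeating a symbol the row with most reads was used. Replicates differed by more than counting noise, so none was counted as a duplicate. Where the sources do not say which embryos made a replicate, p-values measure the spread between these samples.

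The quasi-likelihood test of edgeR 4.0.16 (R 4.3.3, TMM factors) was run on the counts (rows with at least 1 count over the samples compared) of 3 against 3 libraries or of 12 libraries for the organ difference in enrichment. P-values were adjusted over all rows tested, with a threshold of 0.001. The test was checked on simulated data. Total counts per library ranged from 21760652 to 79231692 reads, so the precision of all but the lowest levels is set by the replicates. The alternatives were DESeq2 1.42.0, limma 3.58.1 on log2(RPKM + 1), RLE size factors, total counts, at least 10 counts in 3 samples, a replicate block, a single fit of the 21 samples, the organ transcriptome as reference, a pseudocount of 0.1, a lower RPKM minimum of 1 for likeness, and each library left out in turn. Percentages of family RPKM are over the listed family genes.

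Transcriptome and translatome libraries with the same number came from the same tissue sample, and their deviations from the group means correlated with r of 0.38 to 0.62 in brain and 0.55 to 0.61 in kidney. In brain EC against kidney EC r was 0.18 to 0.37, and the block changed no call there.

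The 10 genes and the gene lists were chosen with earlier results of these data known. Up to 5 genes per list and direction were named, those past the threshold with the largest differences between brain EC and kidney EC and at least 1 RPKM in either. In the families and in thyroid hormone handling, genes named beyond these (the main Slc38a genes, Slc16a4, Thra, Klf9 and Ttr) were chosen after their values were seen. A few genes that the rules select are not reported here. Promoters are those of RefSeq, and gene positions those of GENCODE vM21. Python 3.11.15, pandas 2.3.3 and matplotlib 3.10.9 were used for summaries and figures.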

Additional observations from a re-analysis of the deposited data

Results flagged for a closer look

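The enrichment of 8 carriers over the organ translatome differed between brain and kidney endothelium, by edgeR's test of the difference itself over 12 libraries with adjusted p under 0.001. On the log2 scale the difference (brain minus kidney) was 5.71 for Slc38a5, 4.14 for Slc2a1, 3.94 for Slc7a5, 3.78 for Slco1c1, 3.33 for Slc3a2, 2.88 for Slc7a1, 2.66 for Slco2b1 and 1.44 for Slc6a6. All 3 brain EC libraries were above all 3 brain translatome libraries by RPKM for each of the 8, which were also called in that comparison. Of all rows, 24.8% were called higher there, and the share of all rows apart by RPKM was not computed. In the test of the difference, 16.5% of all 19764 rows passed as higher in brain and 8.6% as lower. In the same test all 9 pan-endothelial markers passed, with a median of 1.50 and a range of 1.41 to 1.66, which holds the value of Slc6a6. All 8 markers of barrier or fenestrated endothelium passed as well, with a median of 3.32, among them Plvap, which was lower in brain EC than in kidney EC. The adjusted p of the 8 carriers ranged from 4.62e-14 for Slc2a1 to 1.60e-04 for Slco1c1.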

How the results depend on the processing

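Of 1118 values recomputed under an alternative for the 10 genes, 1040 kept direction and side of the threshold, 36 lost it, 21 gained it and 21 turned in sign. No difference past the threshold turned. Over the libraries left out in turn, the number of genes past the threshold was 9 to 10 in brain EC against kidney EC, 8 and 8 against the brain translatome, 3 and 3 in kidney EC against the kidney translatome, 7 to 8 in the Emx1-lineage, 7 to 8 between the organs, 2 to 4 for brain and 2 to 4 for kidney between translatome and transcriptome, and 7 to 8 for the organ difference. Kidney EC against the kidney transcriptome gave 6 in place of 3, the added ones all lower (Slc3a2 at -0.53, Slc16a1 at -0.50 and Slco1a4 at -1.68). Translatome against transcriptome gave 6 (block) and 1 (limma) in brain and 0 (limma) in kidney, where limma called 4553 rows at adjusted p under 0.001.

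Slc16a1 in brain EC against the brain translatome turned to -0.12 (total counts), -0.090 (limma) and, like Slco1a4 at -0.65, to -0.28 against the transcriptome. In kidney EC, Slc2a1 turned to -0.30 (total counts), -0.28 (limma) and -0.23 (transcriptome), and Slc7a5 to -0.20 and -0.19. Slco1a4 between the organs was 0.0014 with the block and -0.29 to 0.22 over the libraries left out in turn. Between translatome and transcriptome these ranges held 0 for Slc38a5 (-0.12 to 0.23) and Slc2a1 (-0.012 to 0.073) in brain, and for Slc38a5 (-0.15 to 0.066) and Slco2b1 (-0.17 to 0.034) in kidney. In the Emx1-lineage, Slc6a6 lost its call with the stricter filter, limma, the block and 4 libraries left out, and Slc16a1 with limma and 3 libraries. The cause was not tested. Outside the pairs named in the processing, same-numbered libraries are known to share only a number, and the block changed the call of Slc6a6 in the Emx1-lineage. Reads were few for Slco1a4 in every group (20 to 239 per library) and for Slc38a5 and Slco1c1 in the kidney groups. The part of counting error in their spread was not tested. With a pseudocount of 0.1, 16 of the 30 closest rows were shared.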
